A study of Mus musculus with 4 samples.

Results

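The 41 genes described here encode proteins of nucleolar ribosome biogenesis, namely RNA polymerase I subunits and initiation factors, the proteins of small nucleolar ribonucleoproteins (snoRNPs), abundant nucleolar proteins, and processing factors of the small and the large ribosomal subunit. They were taken by gene symbol from the expression table, and all 41 were found among its 24087 genes. The samples were splenic regulatory T (Treg) cells of C57BL/6 mice, sorted as CD3+CD4+YFP+. In all mice Cre recombinase and YFP were expressed from the Foxp3 locus, which limits the deletion to Foxp3-expressing cells. Control mice (CTRL, Foxp3Cre-YFPSetd2f/+) carried 1 floxed allele of Setd2 and were therefore not wild type at this gene, and their Setd2-deficient littermates (KO, Foxp3Cre-YFPSetd2f/f) carried floxed alleles only. Each genotype had 2 libraries, and each library pooled the cells of 2 mice; the age was 6–12 weeks and both sexes were used, as far as the methods state it for the study's mice in general. Setd2 is the methyltransferase that places H3K36me3, and the comparison asks how gene expression in Treg cells differs when it is deleted.

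Ribosome production starts in the nucleolus, where RNA polymerase I transcribes the ribosomal DNA into a long precursor RNA. Box C/D and box H/ACA snoRNPs then methylate and pseudouridylate this precursor, and large sets of assembly factors fold, cut and trim it into the RNAs of the small and the large subunit. In T cells the pathway is switched up on activation and growth, and many of its genes are textbook targets of the transcription factor MYC, which binds the E-box CACGTG together with its partner MAX.

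Because MYC is known to act through this motif, the E-box was looked for in the promoters of the genes. RefSeq promoter windows (GRCm38.p6, 250 bases before to 50 bases after the annotated start) were at hand for 36 of the 41 genes. CACGTG, which reads the same on both strands, occurred in 10 of the 36 (27.8%), against 8.09% of the 27025 gene symbols in the promoter table and 12.0% of the tested genes that had a window. The variant CACGCG, or CGCGTG on the other strand, occurred in 12 of the 36 (33.3%), against 10.5% of all symbols and 20.3% of the tested ones. Windows of 4 genes are shown, that of Utp20, the gene of the set with the largest difference between genotypes, and those of the 3 genes with an E-box before the start, Utp18, Rrn3 (2 sites) and Nop2. Each is written on the strand of the gene with up to 12 bases on either side, and the capitals mark the E-box:
Utp20, chr10:88826765-88826789, minus strand: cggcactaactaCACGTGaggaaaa
Utp18, chr11:93885769-93885798, minus strand: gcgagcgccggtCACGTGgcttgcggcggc
Rrn3, distal site, chr16:13780472-13780501, plus strand: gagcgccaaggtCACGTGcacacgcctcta
Rrn3, proximal site, chr16:13780639-13780668, plus strand: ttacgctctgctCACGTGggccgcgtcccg
Nop2, chr6:125131811-125131840, plus strand: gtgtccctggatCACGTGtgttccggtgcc

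The E-box began 20 bases before the start in Utp18, 215 and 48 bases before it in Rrn3, and 60 bases before it in Nop2, whereas in Utp20 it began at base 38 after the start. The other 6 genes with the motif, Wdr43, Ltv1, Mybbp1a, Utp4, Pes1 and Tsr1, also had it after the start. Transcripts of Myc itself were at 65.4 and 64.9 FPKM (fragments per kilobase of gene and per 1000000 mapped fragments) in the CTRL libraries and at 41.3 and 47.6 FPKM in the KO libraries. Myc fell by 0.54 on the log2 scale (SE 0.082, limma adjusted p = 0.036). This call was lost when genes with low values were also tested. The genes with CACGTG had a median log2 fold change, KO minus CTRL, of -0.08 (n = 10, from -0.49 to 0.06), and the 26 without it one of -0.05 (from -0.33 to 0.35). The ranges overlapped over most of their length. For the variant CACGCG or CGCGTG the medians stood the other way round. They were -0.03 for the 12 genes with it (from -0.12 to 0.35) and -0.11 for the 24 without it (from -0.49 to 0.14). Whether MYC was bound at these promoters was not measured here.

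For the libraries as a whole, reads recovered from the FPKM values numbered at least 29988267 to 32686764 per library. KO was compared with CTRL by limma on log2(FPKM + 1) over the 11399 genes with at least 1 FPKM in at least 2 libraries, with p adjusted over all of them. Setd2 was at 23.4 and 25.3 FPKM in the CTRL libraries against 21.3 and 19.5 FPKM in the KO libraries (log2 fold change -0.24, SE 0.076, limma adjusted p = 0.097). The table gives 1 value per gene, so the deleted exons could not be looked at separately. The summed FPKM of 6 Treg genes (Foxp3, Il2ra, Ctla4, Ikzf2, Tnfrsf18 and Ikzf4) was 1107 to 1183 in CTRL and 1126 to 1214 in KO. The 10 myeloid genes summed to 134 to 221 FPKM in CTRL and 108 to 289 FPKM in KO, with the higher value in replicate 1 of both genotypes, and 8 B cell genes to 22.4 to 27.2 and 25.2 to 42.9 FPKM. The myeloid signal thus varied more between replicates than between genotypes, and 6 erythroid genes ran likewise from 4.16 to 22.8 FPKM in CTRL and from 11.5 to 38.6 FPKM in KO, again higher in replicate 1. The 5 CD8 T cell genes summed to 12.4 to 14.6 FPKM in CTRL and to 15.1 to 16.7 FPKM in KO without overlap, and 1 of the 3 tested was higher in KO. The part of these cells in the results was not tested.

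All 41 genes were expressed and passed the filter. Their mean level ran from 4.74 FPKM for Utp20 to 436 FPKM for Npm1, with a median of 23.5 FPKM against 12.5 FPKM for all genes tested, and 35 of the 41 exceeded 10 FPKM. At least 524 reads stood behind each value. Npm1 stood far above the other genes in every library, and Fbl, Nop56, Rrp1 and Ncl followed, lying together between 84.9 and 107 FPKM. The order among these 4 was not the same in the 2 genotypes, with Fbl first in CTRL and Rrp1 first in KO, where Fbl, Rrp1 and Ncl lay together between 97.4 and 101 FPKM. Exons of 16 of the 41 genes overlap those of another gene on the other strand (Bop1, Bysl, Dkc1, Gnl3, Heatr1, Mybbp1a, Nhp2, Nop14, Nop56, Pes1, Polr1a, Rrp1b, Rrp9, Tsr1, Wdr12 and Wdr43), and whether the counting used strand is not given in the sources used here. A further source of uncertainty is sequence that also occurs in other transcripts, which made up over 10% of the 100-base stretches of 5 genes, namely 34.6% in Ddx18, 22.0% in Tsr1, 15.3% in Fbl, 12.7% in Npm1 and 11.6% in Nop56. The values of these genes are uncertain to that extent.

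**Figure D1:**
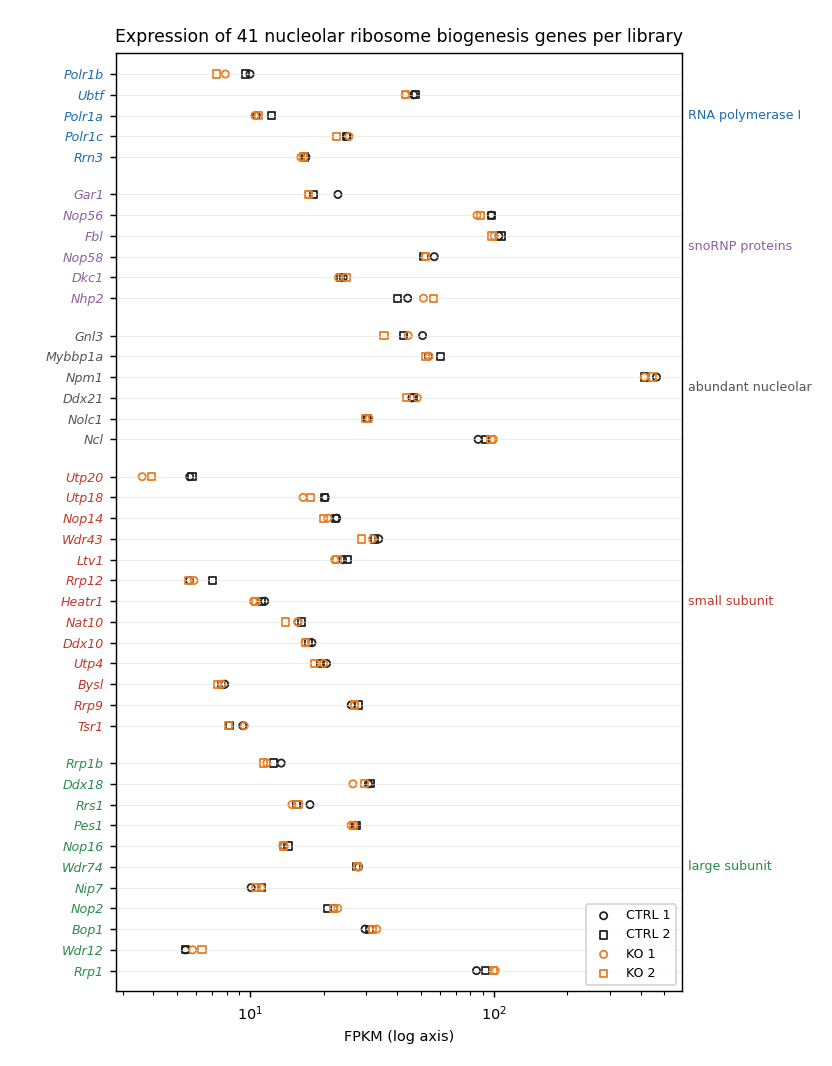
FPKM (log axis) of each of the 41 genes in the 4 libraries, grouped by role (coloured gene names), with CTRL in black, KO in orange, circles for replicate 1 and squares for replicate 2. The symbols of most genes lie on top of each other, and those of Utp20 are the farthest apart between genotypes, at 5.64 and 5.77 FPKM in the CTRL libraries against 3.60 and 3.94 FPKM in the KO libraries.

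The nucleolar genes differed little between the genotypes. Of the 41, 1 gene was lower in KO (Utp20) and 0 were higher, whereas among all genes tested 4.65% were lower and 5.10% higher in KO. At an unadjusted p under 0.05, limma had 4 of the 41 lower (Utp20, Polr1b, Utp18 and Nop56) and 2 higher (Nhp2 and Rrp1), that is 14.6% against 34.7% of all genes tested. With limma-voom on the recovered reads, 2 were lower (Utp20 and Polr1b) and 1 was higher (Nhp2), beside 9.01% lower and 7.62% higher among all genes in that fit. The KO libraries lay on one side of both CTRL libraries for 22 of the 41 genes (53.7%, 17 lower and 5 higher) and for 64.5% of all genes tested. Over both directions together, the shares were thus below those of the background in each of these counts. Of all 11399 genes tested, both KO libraries were lower for 4043 and higher for 3306. The share with both KO libraries lower was thus larger among the 41 genes than among all genes, and the share with both higher was smaller.

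The 41 estimates nonetheless leaned to the lower side. Their median log2 fold change was -0.06 (interquartile range -0.12 to 0.00), beside -0.02 (-0.18 to 0.15) for all genes tested, and 30 of the 41 were below 0 (73.2%, against 53.8%). Around each gene's own mean, the median gene stood 0.03 and 0.02 log2 units higher in the CTRL libraries and 0.02 and 0.04 lower in the KO libraries, while the FPKM of all 41 together summed to 1695 and 1649 in CTRL and to 1627 and 1640 in KO.

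The 95% interval of the log2 fold change stayed within 0.5 in either direction for 36 of the 41 genes (87.8%, against 65.3% of all genes tested) and within 1 for all 41. For 35 genes the interval included 0, which does not show that they were equal. Because the cells were measured in bulk, fewer cells of a type and less RNA per cell cannot be told apart.

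**Figure D2:**
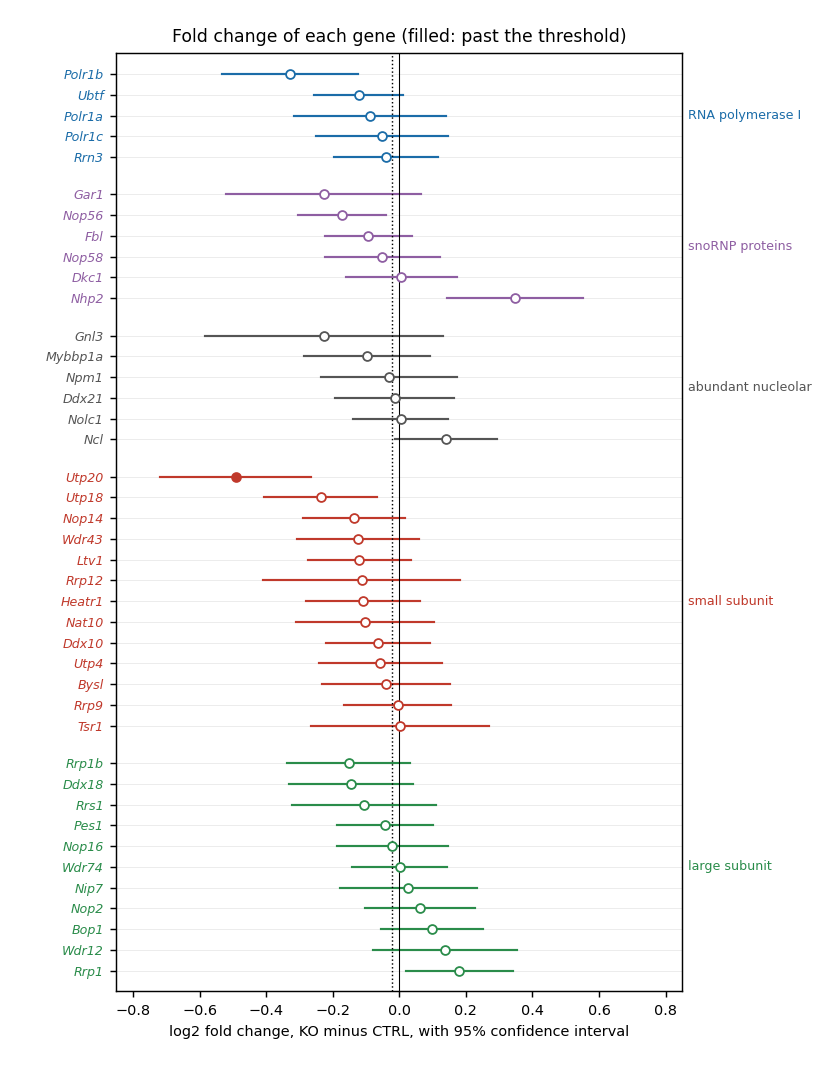
Log2 fold change (KO minus CTRL) of each gene with its 95% confidence interval from limma (n = 2 libraries per genotype), grouped by role, with a filled circle for a gene past adjusted p of 0.05, a solid line at 0 and a dotted line at the median of all genes tested. Utp20 at -0.49 is the filled circle, and Nhp2 at 0.35 is the highest value.

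RNA polymerase I transcription was represented by 5 genes, and 0 of them passed the threshold (1 at an unadjusted p under 0.05 by limma, and the same 1 past the threshold by limma-voom). Their estimates were all below 0, with a median of -0.09, which was -0.13 without CTRL 1 and -0.06 without CTRL 2. Polr1b, which encodes the second largest subunit of the polymerase (chromosome 2, 129100995 to 129126594, plus strand, GRCm38), had the lowest estimate. Its level was 9.98 and 9.56 FPKM in the CTRL libraries against 7.91 and 7.26 FPKM in the KO libraries. Both KO libraries were below both CTRL libraries, with a log2 fold change of -0.33 (SE 0.079, limma adjusted p = 0.062), which did not pass. By limma-voom the value was -0.37 (adjusted p = 0.035), past the threshold, and in the other settings the adjusted p ran from 0.053 to 0.21.

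The largest subunit, Polr1a, had 10.6 and 12.2 FPKM in the CTRL libraries against 10.5 and 10.8 FPKM in the KO libraries, and the groups overlapped. Polr1c, a subunit shared with RNA polymerase III, ranged from 22.5 to 25.4 FPKM with KO libraries at both ends. Ubtf, the upstream binding factor that opens ribosomal DNA for transcription, was at 46.9 and 47.6 FPKM in the CTRL libraries against 43.3 and 43.4 FPKM in the KO libraries (log2 fold change -0.12, SE 0.052, limma adjusted p = 0.17). Rrn3, the initiation factor that recruits the polymerase, differed by -0.04 (95% interval -0.20 to 0.12), the smallest difference of the 5 and an interval narrow enough to leave out a change of 0.5.

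Of the 6 snoRNP proteins, 0 passed the threshold by limma and 2 did so without adjustment, in opposite directions. Nop56 is a core protein of the box C/D particles, which guide 2′-O-methylation. It was at 97.6 and 97.8 FPKM in the CTRL libraries against 85.3 and 88.0 FPKM in the KO libraries, with all KO values lower (log2 fold change -0.17, SE 0.051, limma adjusted p = 0.089). Under quantile normalization Nop56 passed the threshold (-0.26, adjusted p = 0.044, over all other settings 0.074 to 0.28). The other core proteins of these particles were nearer to each other between genotypes. The methyltransferase Fbl had a log2 fold change of -0.09 (95% interval -0.22 to 0.04), and Nop58 one of -0.05 (-0.22 to 0.12).

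Nhp2 is a core protein of the box H/ACA particles, which guide pseudouridylation and also sit in telomerase (chromosome 11, 51619735 to 51623714, plus strand). It was at 44.3 and 40.2 FPKM in the CTRL libraries against 51.4 and 56.7 FPKM in the KO libraries, with both KO libraries higher. Its log2 fold change of 0.35 was the highest among the 41 genes (SE 0.080, limma adjusted p = 0.056) and stood just short of the threshold, which it passed in 5 of the 16 other settings, limma-voom among them (adjusted p = 0.046, over all settings 0.044 to 0.19). Gar1, of the same particles, pointed the other way, at 22.9 and 18.2 FPKM in the CTRL libraries against 17.3 and 17.3 FPKM in the KO libraries, and most of its difference came from CTRL 1 (log2 fold change -0.23, SE 0.11, limma adjusted p = 0.23). Dkc1, the pseudouridine synthase, stayed between 23.0 and 24.8 FPKM with overlapping groups (0.01, 95% interval -0.16 to 0.17). The estimates of these 3 box H/ACA proteins thus ran from -0.23 to 0.35, on both sides of those of the box C/D proteins. Exons of Nhp2 overlap those of Rmnd5b on the other strand, and exons of Nop56 those of Idh3b.

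Among the 6 abundant nucleolar proteins and regulators, 0 passed, also without adjustment and by limma-voom. Ncl, nucleolin, which binds ribosomal DNA chromatin and the precursor RNA, was at 86.2 and 92.6 FPKM in the CTRL libraries against 99.6 and 97.4 FPKM in the KO libraries. The groups did not overlap, with KO higher (log2 fold change 0.14, SE 0.060, limma adjusted p = 0.17). The value for Ncl was 0.09 without CTRL 1 and 0.06 under quantile normalization, and 0.21 with the exon length trend removed. Npm1, nucleophosmin, a chaperone of ribosomal proteins and by far the most abundant of the set, had 465 and 417 FPKM in the CTRL libraries against 415 and 448 FPKM in the KO libraries. The libraries of each genotype thus lay farther apart than the genotype means of 441.3 FPKM in CTRL and 431.5 FPKM in KO. Gnl3, nucleostemin, ranged from 35.4 to 51.0 FPKM, and in both genotypes replicate 1 was above replicate 2. The difference of -0.23 (SE 0.14) had the widest interval of the 41 genes, from -0.58 to 0.13. Mybbp1a, Ddx21 and Nolc1 had log2 fold changes of -0.10, -0.01 and 0.00, all with overlapping groups.

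Small subunit processing held the gene that passed the threshold. Of its 13 genes, 1 was lower in KO and 0 were higher, with a median of -0.11, and 12 of the 13 estimates were below 0. The median was -0.06 without KO 2 and -0.06 under quantile normalization. Utp20 encodes a very long repeat protein of the small subunit processome, the particle that forms on the nascent precursor RNA (chromosome 10, 88746607 to 88826804, minus strand). It was at 5.64 and 5.77 FPKM in the CTRL libraries against 3.60 and 3.94 FPKM in the KO libraries, with at least 1635 and 1764 reads and at least 1123 and 1233 reads. Both KO libraries were below both CTRL libraries by a gap several times the spread within either genotype. Utp20 fell by 0.49 on the log2 scale (SE 0.089, 95% interval -0.72 to -0.27, limma adjusted p = 0.041). Its exons overlap no other annotated gene, and none of its 100-base stretches occurs in another transcript.

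The call did not hold under every setting. It was lost when the trend of fold change with exon length was removed (log2 fold change -0.42, adjusted p = 0.060), under quantile normalization (-0.44, adjusted p = 0.057), without the filter on low values, and when any 1 library was left out, when the log2 fold change ran from -0.54 to -0.44 with adjusted p from 0.11 to 0.16. By limma-voom Utp20 was called with the lowest adjusted p of all settings, 0.015, and a larger log2 fold change of -0.61. With 0.1 instead of 1 added to the FPKM, the log2 fold change was -0.59 (limma adjusted p = 0.042).

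Utp18, another processome protein (chromosome 11, 93859243 to 93885766, minus strand), came next in the group. It was at 20.3 and 20.2 FPKM in the CTRL libraries against 16.5 and 17.7 FPKM in the KO libraries, with both KO libraries lower (log2 fold change -0.24, SE 0.066, limma adjusted p = 0.078). With the GC trend removed Utp18 was at -0.16. The other 11 genes had log2 fold changes from -0.14 (Nop14) to 0.00 (Tsr1), none past the threshold. Of these, Nop14, Wdr43, Ltv1, Heatr1, Nat10 and Ddx10 had both KO libraries at or below both CTRL libraries without overlap, with differences of -0.14 to -0.06. Rrp12, Utp4, Bysl, Rrp9 and Tsr1 had overlapping groups. These include early processome proteins (Heatr1, Wdr43, Utp4), the acetyltransferase Nat10 and the late export and cytoplasmic factors Ltv1, Bysl, Tsr1 and Rrp12. The shared stretches of Tsr1 are mainly those of Srr on the other strand.

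Large subunit processing had 5 of 11 estimates below 0, a median of 0.00 and 0 genes past the threshold by limma or limma-voom (1 without adjustment). Its median was -0.06 once the exon length trend was removed, beside -0.07 for all 41 genes under that setting. Rrp1, a pre-60S assembly factor (chromosome 10, 78400384 to 78413043, minus strand), had the highest estimate. Its level was 84.9 and 92.5 FPKM in the CTRL libraries against 101 and 99.6 FPKM in the KO libraries. Both KO libraries were higher (log2 fold change 0.18, SE 0.063, limma adjusted p = 0.12). The value for Rrp1 was 0.12 without CTRL 1 and 0.10 under quantile normalization. Its paralogue Rrp1b, which is nucleolar as well, had the lowest estimate of the group, at 13.4 and 12.4 FPKM in the CTRL libraries against 11.7 and 11.3 FPKM in the KO libraries (-0.15, SE 0.072, limma adjusted p = 0.21), so that the pair pointed in opposite directions without either passing.

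The proteins of the PeBoW complex, Pes1, Bop1 and Wdr12, which act together on the large subunit precursor, had log2 fold changes of -0.04, 0.10 and 0.14. Their 95% intervals, -0.19 to 0.10, -0.05 to 0.25 and -0.08 to 0.35, overlapped each other. The RNA methyltransferase Nop2 differed by 0.06 (95% interval -0.10 to 0.23) and Wdr74 by 0.00 (-0.14 to 0.14), which places Wdr74 among the genes with the closest levels in both genotypes. Nip7 and Nop16 had overlapping groups, as had Rrs1, which joins the 5S particle to the precursor. Ddx18, a helicase, had -0.15 (95% interval -0.33 to 0.04), and its shared stretches are mainly those of a processed pseudogene.

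Utp20 is also among the longest of these genes, with 10199 bases of annotated exon. Over all genes tested, the log2 fold change was lower in longer genes. The median was 0.04 for the 1250 genes under 1500 bases and -0.10 for the 1860 genes of at least 8000 bases, of which 6.72% were lower in KO and 2.63% higher. The 5 nucleolar genes of at least 8000 bases were Utp20 (-0.49), Polr1a (-0.09), Nop58 (-0.05), Wdr12 (0.14) and Ncl (0.14), which lay on both sides of the median of their class. Across the 41 genes, Pearson's r between the log2 exon length and the log2 fold change was -0.27 and Spearman's rho was -0.19, beside -0.09 and -0.18 over the 11397 tested genes with an annotated length. These are descriptions across genes measured in the same 4 libraries, not across replicates. The part of exon length in the value of Utp20 beyond the setting given above was not tested.

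**Figure D3:**
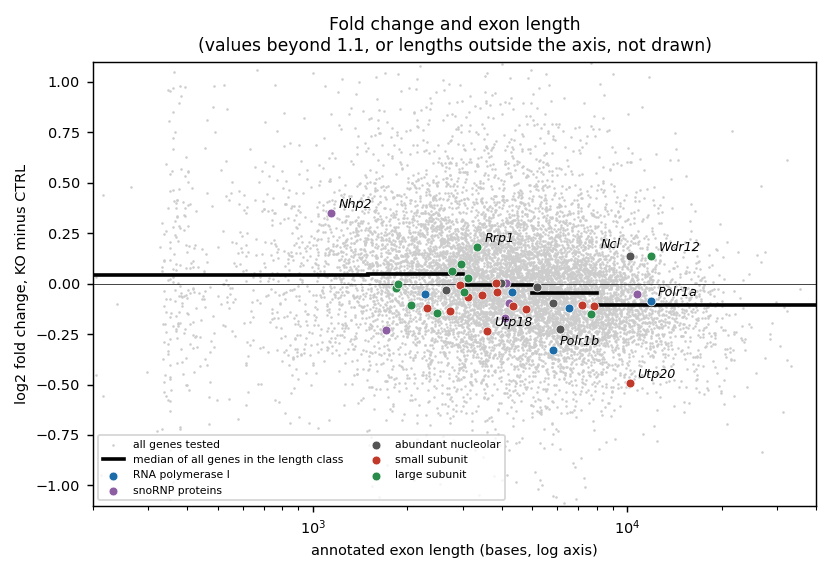
Log2 fold change (KO minus CTRL) against annotated exon length (log axis) for all genes tested (grey) and for the 41 genes by role (coloured), with black bars at the median of all genes in each of 5 length classes. The bars fall from 0.04 and 0.05 on the left to -0.10 on the right, and Utp20 lies well below the bar of its class while Ncl and Wdr12 lie above it.

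The remainder of the pathway was read from 5 further lists of ribosome biogenesis genes, 133 in all, of which 132 were found and tested. Of these, 3 were higher and 3 lower in KO by limma (4.55%, against 9.75% of all genes tested, and 31.1% against 34.7% without adjustment). The median log2 fold change of these genes was -0.04 (-0.01 without CTRL 1, -0.07 without KO 1). Znrd1 (now named Polr1h), a small subunit of RNA polymerase I, was the lowest of them, with 43.5 and 44.3 FPKM in the CTRL libraries against 29.9 and 25.9 FPKM in the KO libraries (log2 fold change -0.64, SE 0.082, limma adjusted p = 0.035). It was 1 of the 10 polymerase I subunits and initiation factors listed beside the 5 above, and 0 of these 10 were higher (1 higher and 4 lower without adjustment, 0 higher by limma-voom). Mdn1, the giant ATPase that strips factors from the large subunit precursor, had 12.1 and 13.9 FPKM in the CTRL libraries against 8.54 and 8.43 FPKM in the KO libraries (-0.56, SE 0.087, limma adjusted p = 0.038). Rrp15, another large subunit factor, had 11.3 and 12.0 FPKM in the CTRL libraries against 8.90 and 8.93 FPKM in the KO libraries (-0.36, SE 0.071, limma adjusted p = 0.046).

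The 3 genes that rose were Ddx24, a helicase of the large subunit, Eif6, which keeps the 60S subunit from joining the 40S subunit, and Noc4l, a small subunit factor. Ddx24 was at 70.4 and 76.9 FPKM in the CTRL libraries against 100 and 104 FPKM in the KO libraries (0.47, SE 0.065, limma adjusted p = 0.035). Eif6 was at 41.4 and 40.7 FPKM in the CTRL libraries against 52.4 and 51.4 FPKM in the KO libraries (0.33, SE 0.053, limma adjusted p = 0.038). Noc4l was at 23.0 and 23.8 FPKM in the CTRL libraries against 29.6 and 31.3 FPKM in the KO libraries (0.37, SE 0.062, limma adjusted p = 0.040). In each of these 6 genes the groups did not overlap, and the large subunit list held genes that moved both ways (2 higher and 2 lower of 54). Of the 40 further small subunit genes 1 was higher and 0 lower by limma (7 lower without adjustment, 2 by limma-voom). Of the 11 snoRNP assembly and 17 exosome and trimming genes 0 passed by limma or limma-voom. At an unadjusted p under 0.05 by limma there were 4 and 3 of them (36.4% and 17.6%, against the same 34.7%). When the exon length trend was removed, the calls of Znrd1 and Ddx24 remained, and 4 were lost, with log2 fold changes of -0.40 for Mdn1 (adjusted p = 0.057), -0.37 for Rrp15 (0.057), 0.32 for Noc4l (0.060) and 0.29 for Eif6 (0.050, above the threshold before rounding). Rrp15 also missed the threshold with median-ratio scaling, quantile normalization, without the variance trend, without the GC trend and by limma-voom, and Noc4l and Eif6 did so without the variance trend. Without the filter on low values or without any 1 library, 0 of the 6 passed by limma.

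The proteins of the ribosomes themselves were set beside these genes. Of 84 cytosolic ribosomal protein genes tested, 7 were lower and 0 higher in KO by limma (8.33%, against 9.75% of all genes tested), with a median of -0.15. Without adjustment 33 were lower and 2 higher (41.7%, against 34.7% of all genes tested, with 2099 lower and 1855 higher). By limma-voom 22 were lower and 0 higher, beside 9.01% lower and 7.62% higher among all genes in that fit. Of 77 mitochondrial ribosomal protein genes, 6 were higher and 1 lower by limma (9.09%), and 20 were higher and 8 lower without adjustment (36.4%). By limma-voom 3 of them were higher and 2 lower. Their median was 0.05, which was 0.02 without KO 2 and 0.02 with the exon length trend removed. The median of the 41 nucleolar genes, -0.06, lay between the medians of the ribosomal protein lists, and these differences between lists were not tested. The signs of these 3 medians were the same under all 16 other settings.

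The proliferation genes rose in KO. Of 12 such genes, among them Mki67, Top2a and Cdk1, 10 were higher in KO and 0 lower by limma (12 higher and 0 lower without adjustment, 11 and 0 by limma-voom), with a median log2 fold change of 0.85. Their FPKM summed to 442 and 368 in CTRL and to 602 and 595 in KO. Top2a, a topoisomerase of dividing cells, was at 31.4 and 24.5 FPKM in the CTRL libraries against 57.6 and 58.5 FPKM in the KO libraries (1.04, SE 0.12, limma adjusted p = 0.035). Without the filter on low values 0 genes passed by limma, the proliferation genes and Myc included. The levels of the proliferation genes and of Myc differed between the genotypes alongside the nucleolar genes, and their part in the values of the nucleolar genes was not tested.

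**Figure D4:**
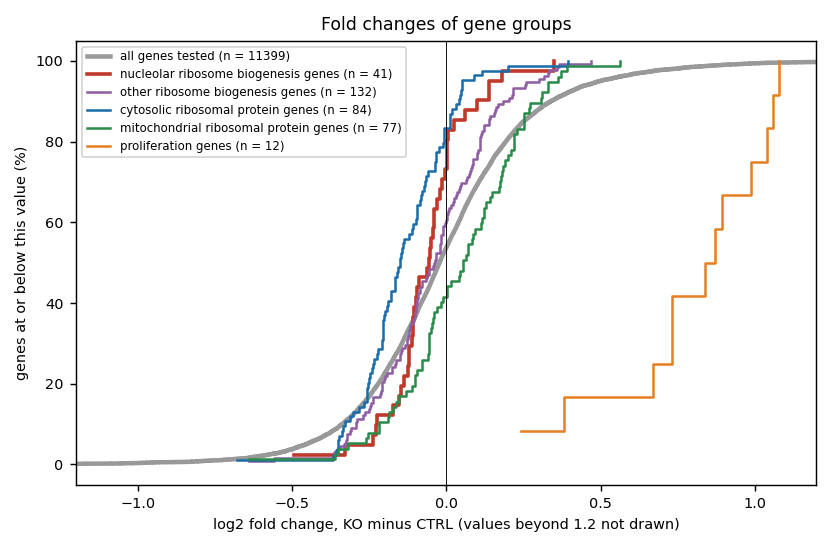
Share of genes (%) at or below each log2 fold change (KO minus CTRL) for all genes tested, the 41 nucleolar genes, the other ribosome biogenesis genes, the cytosolic and mitochondrial ribosomal protein genes and the proliferation genes. The curve of the 41 nucleolar genes is steep around its median of -0.06 and ends at 0.35, while the 12 proliferation genes lie wholly above 0.

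Several of the 41 genes carry small nucleolar RNA genes within their bodies, as is typical of snoRNA hosts. GENCODE vM21 places 21 snoRNA genes inside 7 of them, of which 5 are in Nop56, 4 in Nop58, 3 each in Ncl, Gnl3 and Wdr43, 2 in Tsr1 and 1 in Dkc1. The table had rows for 6 of the 21. Snora75 within Ncl was at 48.4 and 51.0 FPKM in the CTRL libraries against 49.3 and 50.8 FPKM in the KO libraries, so its groups overlapped. The other 5 were at or under 10.6 FPKM. The RNA was selected with oligo(dT), which does not capture mature snoRNAs, so these values do not measure them.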

How the data were processed

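RNA of sorted splenic Treg cells (approximately 1000000 cells per library) was measured by oligo(dT)-selected RNA-seq in 4 libraries. The authors mapped read pairs to mm10 (GRCm38) with HISAT2 2.2.1 and counted them per gene with featureCounts 2.0.1 (versions from the submitters' processing notes), and deposited FPKM values of 24087 genes. Gene lengths behind the FPKM, annotation version, strand and multi-mapped reads are not given in the sources used here. Control columns named WT were read as the CTRL libraries of the same number.

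Ratios of low FPKM values between libraries returned whole reads for 99.995% of the 19888 genes above 0. These reads are lower bounds. Positions and exon lengths came from GENCODE vM21, promoters from RefSeq.

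KO and CTRL were compared with limma 3.58.1 (R 4.3.3; lmFit, eBayes with trend, two-sided) on log2(FPKM + 1), a scale that understates changes of weakly expressed genes. Benjamini-Hochberg adjustment ran over all 11399 genes tested, with a threshold of 0.05. Because the values were FPKM, a count test (limma-voom on recovered reads) served only as an alternative. Its weights rested on the recovered reads, which are lower bounds and can be below the true number for a gene. The fit was tested on simulated data, in which the changes were larger than that of any of the 41 genes. That test therefore does not show how often changes of their size are found. With 2 libraries per genotype a permutation test cannot reach the threshold. The precision is that of 2 pooled libraries per genotype.

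The members and lists were chosen with earlier results of these data known. Named with values were genes past the threshold and the 3 largest fold changes in each direction (Nop56, Gar1 and other members were added after their values were seen), and, of the other lists, genes past the threshold.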

Additional observations from a re-analysis of the deposited data

How the results depend on the processing

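Of the 12 settings other than leaving out a library, the largest effect came from testing without the filter on low values, where 0 genes passed in either direction, the nucleolar and the other ribosome biogenesis genes included (2212 higher and 2251 lower without adjustment by limma). Removing the exon length trend left 382 genes higher and 300 lower and 0 nucleolar genes lower; without the variance trend 315 were higher. Limma-voom on recovered reads had 1027 lower. Nucleolar genes: 1 was higher (Nhp2) with mean FPKM above 5, median-ratio scaling, robust eBayes and limma-voom, and 2 were lower with limma-voom. Their median moved by more than the 0.01 between replicates to -0.0704 with libraries scaled to the same sum, -0.039 with median-ratio scaling, -0.0666 without the length trend and -0.0776 without the GC trend. Other ribosome biogenesis genes: 5 were higher with mean FPKM above 5, robust eBayes and limma-voom, 6 without the GC trend and 1 without the variance trend, and 8, 8 and 9 were lower with the first 3 of these, and 5 with quantile normalization.

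Leaving out 1 library at a time, each of CTRL 1, CTRL 2, KO 1 and KO 2 reduced the count of higher genes to between 0 and 1 and of lower genes to between 0 and 1, with 0 nucleolar and 0 other ribosome biogenesis genes called by limma; the lone library is assumed to vary like the others, and 1 residual degree of freedom remained. The median of the nucleolar genes then ran from -0.0777 to -0.0517. With a replicate block, 968 genes were higher and 805 lower, of the nucleolar genes 1 higher (Nhp2), and of the other ribosome biogenesis genes 5 higher and 6 lower. Whether libraries of the same replicate number were prepared together is not given in the sources used here (correlation of deviations 0.34, rank correlation 0.055, over 2 pairs). Of the 41 genes, 26 kept the sign of their fold change in all 16 settings, and the 15 others had values of 0.11 or less in size. The cause of the changes between settings was not tested.

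With 2 pooled libraries per genotype the spread rests on few values. The limma calls of the nucleolar and the other ribosome biogenesis genes did not hold when a single library was left out. Leaving out a library was not tried with limma-voom.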
